A study of Canis lupus familiaris with 2 samples.

Results

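The data concern 5 genes of p53 response and cell death, CDKN1A, PMAIP1, BCL2L1, CASP10 and TNFSF10, in a canine lymphoma line and its doxorubicin-resistant derivative. They were taken by name from the 1729 rows of the deposited comparison table, with earlier results of these data known, so that each has a row was fixed by the choice. CLBL-1 is a line of canine diffuse large B-cell lymphoma from lymph node, labelled as having no chemoresistance. CLBL-1 8.0 is CLBL-1 made resistant to doxorubicin, an anthracycline that damages DNA through topoisomerase II, and it was maintained with 8 µM of the drug. Both lines grew in medium with 10% fetal bovine serum. Each line gave a single sample with a single abundance value for each gene, so no value below has a replicate error and no difference was tested. Whether CLBL-1 8.0 is 1 clone or a mixed population, and whether the drug was still present when RNA was taken, is not given in sources used here. Drug exposure and resistance cannot be told apart in this design.

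When DNA is damaged, the transcription factor p53 raises genes that stop the cell cycle and genes that start apoptosis. Apoptosis runs by an intrinsic route, in which pro-apoptotic and survival proteins of the BCL2 family decide whether mitochondria release their contents, and by an extrinsic route, in which ligands such as TRAIL engage death receptors that recruit initiator caspases. Both routes end in executioner caspases. These roles are known mainly from human and mouse cells.

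Of the 5 genes, 4 were higher in the resistant line and 1 was lower. CDKN1A, the inhibitor of cyclin-dependent kinases known as p21, was 2.30-fold higher. PMAIP1, which encodes the pro-apoptotic BH3-only protein NOXA, was 2.62-fold higher, and BCL2L1, which encodes the survival protein BCL-XL, was 3.17-fold higher. CASP10, an initiator caspase of the death receptor route, was 1.61-fold higher, and TNFSF10, which encodes the death ligand TRAIL, was 1.97-fold lower. Over the whole table of 1729 rows, 65.2% were higher in the resistant line and 34.8% lower, so 4 of 5 higher lies near the share of the whole table. A difference of at least 2-fold upwards was seen for 3 of the 5 genes, against 29.2% of the 1720 rows for which a fold can be formed. No gene of the 5 passed 2-fold downwards, against 16.9% of those rows. In bulk RNA, a change in the share of cells that express a gene and a change in RNA per cell cannot be told apart.

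**Figure D1:**
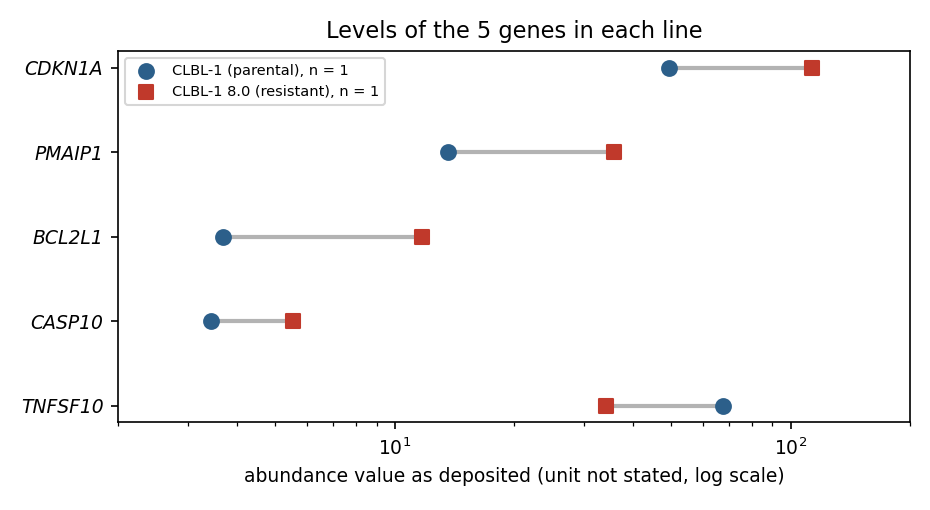
Abundance value of each of the 5 genes (log axis, unit not stated) in CLBL-1 (circles) and CLBL-1 8.0 (squares), 1 sample each, with a grey line joining both values of a gene. The square lies to the right of the circle for CDKN1A, PMAIP1, BCL2L1 and CASP10, and to the left for TNFSF10, which was at 34.1 in the resistant line against 67.4.

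The table is a selection made by the authors, and this sets what the 5 rows can show. Every row with a value above 0 in both lines differed at least 1.59-fold. Every row had a value of at least 5.01 in its higher line, and the lines differed by more than 2 in every row. A gene without a row was not analysed here, and its absence says nothing about its level. Values are compared below between the lines, not between genes, apart from the likeness of rows given near the end, because whether they are scaled per transcript length is not stated. Where values are set against each other without the line, the first is that of the resistant line.

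CDKN1A (gene ID 474890, chromosome 12 from 5746898 to 5755103, plus strand, CanFam3.1) was at 113 in CLBL-1 8.0 and 49.4 in CLBL-1. The authors' deposited table gives a log2 fold of 1.20, and with a pseudocount of 1 the log2 difference was 1.18. Of the 1124 rows that were higher in the resistant line with a finite fold, CDKN1A ranked 324th, with 28.7% of them showing a larger fold. Its fold thus lay well inside the range of the higher rows. The p21 protein arrests the cell cycle and is a widely used readout of p53 activity.

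Of 8 genes looked for that are named as inhibitors of cyclin-dependent kinases, 3 had a row. CDKN1A itself and CDKN2B were higher, and CDKN3, grouped here by its name, was lower. CDKN2B, which encodes p15 and is a target of TGF-beta signalling, was at 116 in CLBL-1 8.0 against 41.5 in CLBL-1. CDKN3, a phosphatase that acts on cyclin-dependent kinases and is high in dividing cells, was at 11.5 against 30.3.

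PMAIP1 (gene ID 100502558, chromosome 1 from 16469793 to 16472910, minus strand) was at 35.8 in CLBL-1 8.0 and 13.7 in CLBL-1. Its deposited log2 fold was 1.39 in the authors' deposited table and its log2 difference with a pseudocount of 1 was 1.33. It ranked 235th among the 1124 higher rows. NOXA binds and neutralises survival proteins, chiefly MCL1, and its gene is induced by p53 and also by p53-independent stress signals. PMAIP1 was the only one of 17 pro-apoptotic BCL2 family genes looked for that had a row.

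BCL2L1 (gene ID 403618, chromosome 24 from 21145214 to 21209425, minus strand) was at 11.7 in CLBL-1 8.0 and 3.69 in CLBL-1. Its fold was the largest of the 5 genes, with a log2 fold of 1.67 in the authors' deposited table and a log2 difference of 1.44 with a pseudocount of 1. It ranked 151st of the 1124 higher rows, so that 13.3% of them had a larger fold. BCL-XL holds pro-apoptotic family members in check at the mitochondrial membrane. In humans the same gene also yields a shorter, pro-apoptotic splice form, and the table gives 1 value per gene, which does not separate splice forms. BCL2L1 was the only one of 6 survival genes of the BCL2 family looked for that had a row.

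BCL2L1 and PMAIP1 encode proteins of opposite function. The log2 difference of BCL2L1 moved more with the pseudocount: with a pseudocount of 5 it was 0.94, against 1.13 for PMAIP1, so the order of the 2 genes turned. The ratio of their folds without a pseudocount, 1.21 in favour of BCL2L1, does not depend on how the lines are scaled against each other. With 1 sample a line there is no error to set this ratio against.

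CASP10 (gene ID 488472, chromosome 37 from 10315867 to 10350585, plus strand) was at 5.53 in CLBL-1 8.0 and 3.44 in CLBL-1. Caspase-10 is recruited through the adaptor FADD to activated death receptors and resembles caspase-8. Its fold of 1.61 lies just above the smallest of the table, and 56 of the 1720 rows had a fold as small or smaller. Its value of 5.53 in the higher line and the difference of 2.09 between the lines were also close to the lower limits of 5.01 and 2. Only 8 of the 1729 rows had a difference as small or smaller. Its log2 difference was 0.56, below the median of 0.73 over all rows, and it became -0.17 after centring on it.

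TNFSF10 (gene ID 100174780, chromosome 34 from 36719249 to 36734989, minus strand) was at 34.1 in CLBL-1 8.0 and 67.4 in CLBL-1. The log2 fold in the authors' deposited table was -0.98, and with a pseudocount of 1 the log2 difference was -0.96. It ranked 302nd of the 596 lower rows with a finite fold, near their middle. TRAIL is made by immune cells, is induced by interferons, and triggers apoptosis in cells that carry its receptors. TNFSF10 was the only one of 7 death ligand genes looked for that had a row.

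Of 12 genes for death receptors and related receptors looked for, TNFRSF12A alone had a row. It encodes the receptor of the ligand TWEAK, has no death domain, and was at 73.6 in CLBL-1 8.0 against 23.2 in CLBL-1. It lies on chromosome 6, where 214 of 227 listed rows were higher. None of the 10 adaptor and kinase genes below the receptors and none of the 9 genes of the apoptosome and the execution phase had a row. Of 9 inhibitors of apoptosis and their antagonists, BIRC5 alone was listed. BIRC5 encodes survivin, which also serves chromosome segregation in mitosis, and was 3.64-fold lower in the resistant line, at 81.5 against 297.

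**Figure D2:**
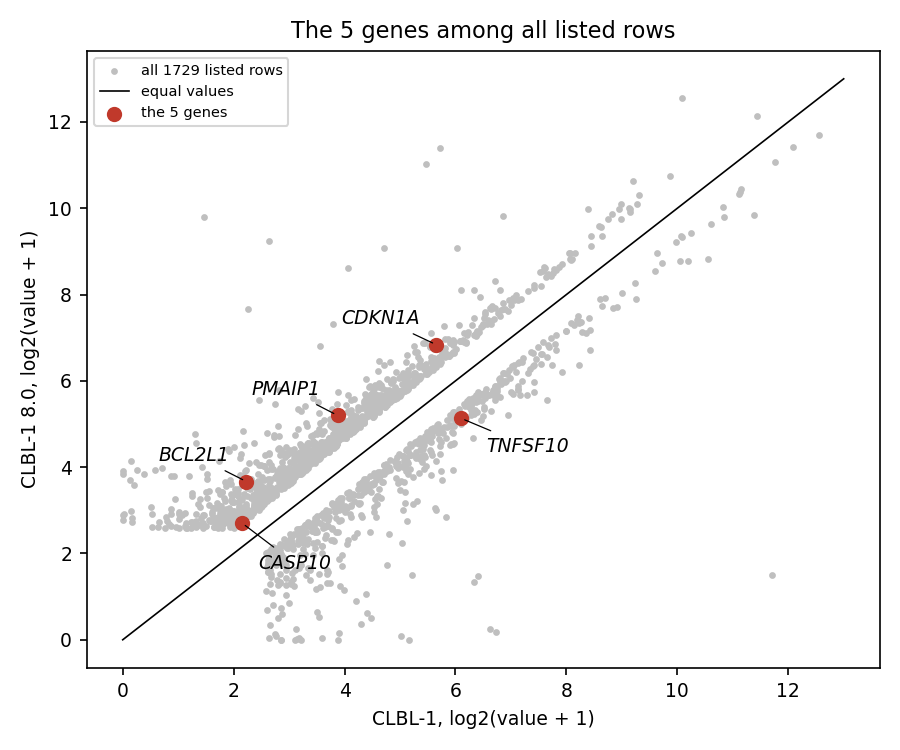
Each point is 1 of the 1729 listed rows, with log2(value + 1) in CLBL-1 on the horizontal and in CLBL-1 8.0 on the vertical axis. Red points mark the 5 genes and the line marks equal values. The empty band along the line reflects the selection of rows, and CASP10, at 5.53 against 3.44, sits at the inner lower edge of the higher rows.

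The differences between the folds of the 5 genes do not depend on a common scaling of the lines. BCL2L1 and TNFSF10 were farthest apart, with a ratio of folds of 6.27. PMAIP1 and TNFSF10 differed by a ratio of 5.17, and CDKN1A and TNFSF10 by 4.53. CDKN1A and PMAIP1, both p53 targets, had the closest folds, with a ratio of 1.14. Among the 4 higher genes the widest ratio was 1.97, between BCL2L1 and CASP10.

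The listed p53 target genes did not share 1 direction. Of 48 targets on the list looked for, which does not hold every known target, 6 had a row, 3 higher and 3 lower, and their median log2 difference was 0.031 against 0.73 over all rows. With 3 higher and 3 lower, that median falls between the higher and the lower targets. SERPINB5, SHISA5 and CDIP1, named below as p53 targets or p53-inducible, are not on that list. They were higher, with log2 differences of 1.78, 0.87 and 0.91, so the median holds for the list alone. Other genes off the list in the authors' KEGG p53 signaling pathway went both ways. TSC2 and CCNE2 were higher, at 1.06 and 0.79, and CCNB1 and CCNB2 were lower, at -0.74 and -0.75. On the list, CDKN1A and PMAIP1 were among the higher targets. The lower targets were RRM2B, the p53-inducible subunit of ribonucleotide reductase, at 2.46 against 6.31, STEAP3, a metalloreductase linked to exosome secretion, at 23.5 against 41.6, and RCHY1, a ubiquitin ligase that targets p53 for degradation, at 18.5 against 35.4. RCHY1 lies on chromosome 32, where 25 of 31 listed rows were lower, and the part of this neighbourhood in its value was not tested.

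Of 16 genes for the p53 family and its regulators, TP63 alone had a row. TP63 encodes a p53-related transcription factor best known from epithelia and was at 9.97 in CLBL-1 8.0 against 4.41 in CLBL-1. It lies on chromosome 34, as does TNFSF10, and the genes differed in opposite directions. Over all role lists together, 15 of 144 distinct genes had a row, 8 higher and 7 lower, in a table where 65.2% of rows were higher. Their median log2 difference was 0.56 against 0.73 over all rows. The 10 genes other than the 5 described in full were 4 higher and 6 lower, with a median of -0.71 against 0.73 over all rows. The 5 left out were chosen with earlier results known and 4 of them were higher, which shapes this remainder. No row was near equal between the lines, so each of these medians takes the sign of the more frequent direction.

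The authors' deposited table of KEGG pathways lists a p53 signaling pathway with 12 genes and a p-value of 0.0171. The table gives no direction with this p-value, and how it was computed is not stated. CDKN1A and PMAIP1 belong to it. Of the 12 genes, 7 (58.3%, against 65.2% of all rows) were higher and 5 lower. The pathway holds genes of opposite roles, such as RCHY1, which targets p53 for degradation, so this count gives no direction of the pathway. Their median log2 difference was 0.82 against 0.73 over all rows. SERPINB5, the serpin maspin and a p53 target in human epithelia, was at 5.94 in CLBL-1 8.0 against 1.02 in CLBL-1, the largest fold of the pathway at 5.80. TSC2, an inhibitor of the growth kinase complex mTORC1, was at 35.1 against 16.3 and lies on chromosome 6, and SHISA5, a p53-inducible protein of the endoplasmic reticulum, was at 63.1 against 34.1. The cyclins of the pathway were split: CCNE2, which drives entry into DNA replication, was at 17.5 against 9.76. The mitotic cyclin genes CCNB1 and CCNB2 were lower, at 162 against 271 and at 64.6 against 109.

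The authors' deposited table of KEGG pathways also lists Apoptosis with 13 genes and a p-value of 0.00247. BCL2L1, CASP10 and TNFSF10 belong to it, and it shares 0 listed genes with the p53 signaling pathway. Of the 13 genes, 8 (61.5%, against 65.2% of all rows) were higher and 5 were lower. Their median log2 difference was 0.76 against 0.73 over all rows, so both lie near those of the whole table. Subunits of phosphoinositide 3-kinase made up 5 of the 13, with PIK3CA and PIK3R2 higher and PIK3CD, PIK3CG and PIK3R3 lower. PIK3R2, a regulatory subunit, was at 21.2 in CLBL-1 8.0 against 6.71 in CLBL-1. PIK3CG, a catalytic subunit of blood cells, was at 2.89 against 8.15.

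The remaining 8 genes of the Apoptosis pathway were 6 higher and 2 lower, with TNFSF10 among the lower ones. The calpain genes CAPN1 and CAPN2, which encode calcium-dependent proteases, were both higher, at 40.9 against 23.3 and at 60.4 against 33.0. NFKBIA, which encodes the NF-kB inhibitor IkB-alpha, was at 26.3 against 10.3. IL3RA, the alpha chain of the interleukin-3 receptor, was at 66.1 against 37.2.

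Of the ontology terms in the authors' deposited table, the one for p53-mediated apoptosis after DNA damage held 6 genes with a p-value of 0.0582. All 6 of these genes were higher in the resistant line, in a table where 65.2% of all rows were higher, and HIPK1 became -0.052 after centring on the all-row median. Their median log2 difference was 0.96 against 0.73 over all rows. The 6 genes were CDKN1A, PMAIP1, TP63, CDIP1, USP28 and HIPK1. CDIP1, a p53-inducible pro-apoptotic protein, was at 32.4 in CLBL-1 8.0 against 16.8 in CLBL-1. USP28, a deubiquitinase that stabilises p53 pathway proteins, was at 6.79 against 3.57. HIPK1, a nuclear kinase, was at 35.9 against 22.0. CDIP1 lies on chromosome 6.

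A second ontology term, apoptotic signaling pathway, held 9 genes with a p-value of 0.00698 in the authors' deposited table and none of the 5 genes. Of its 9 genes, 4 (44.4%, against 65.2% of all rows) were higher and 5 lower. Their median log2 difference was -0.64 against 0.73 over all rows. Since 5 of the 9 genes were lower, this median is the value of a lower gene. ANXA6, a calcium-dependent membrane-binding annexin, was at 6.24 in CLBL-1 8.0 against 55.9 in CLBL-1. HIP1, a clathrin-binding protein encoded on chromosome 6, was at 15.2 against 6.42. TNFRSF6B, a soluble decoy receptor for the ligands FASL, LIGHT and TL1A, was at 36.6 against 22.0, and centring on the all-row median moved its log2 difference from 0.71 to -0.021.

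**Figure D3:**
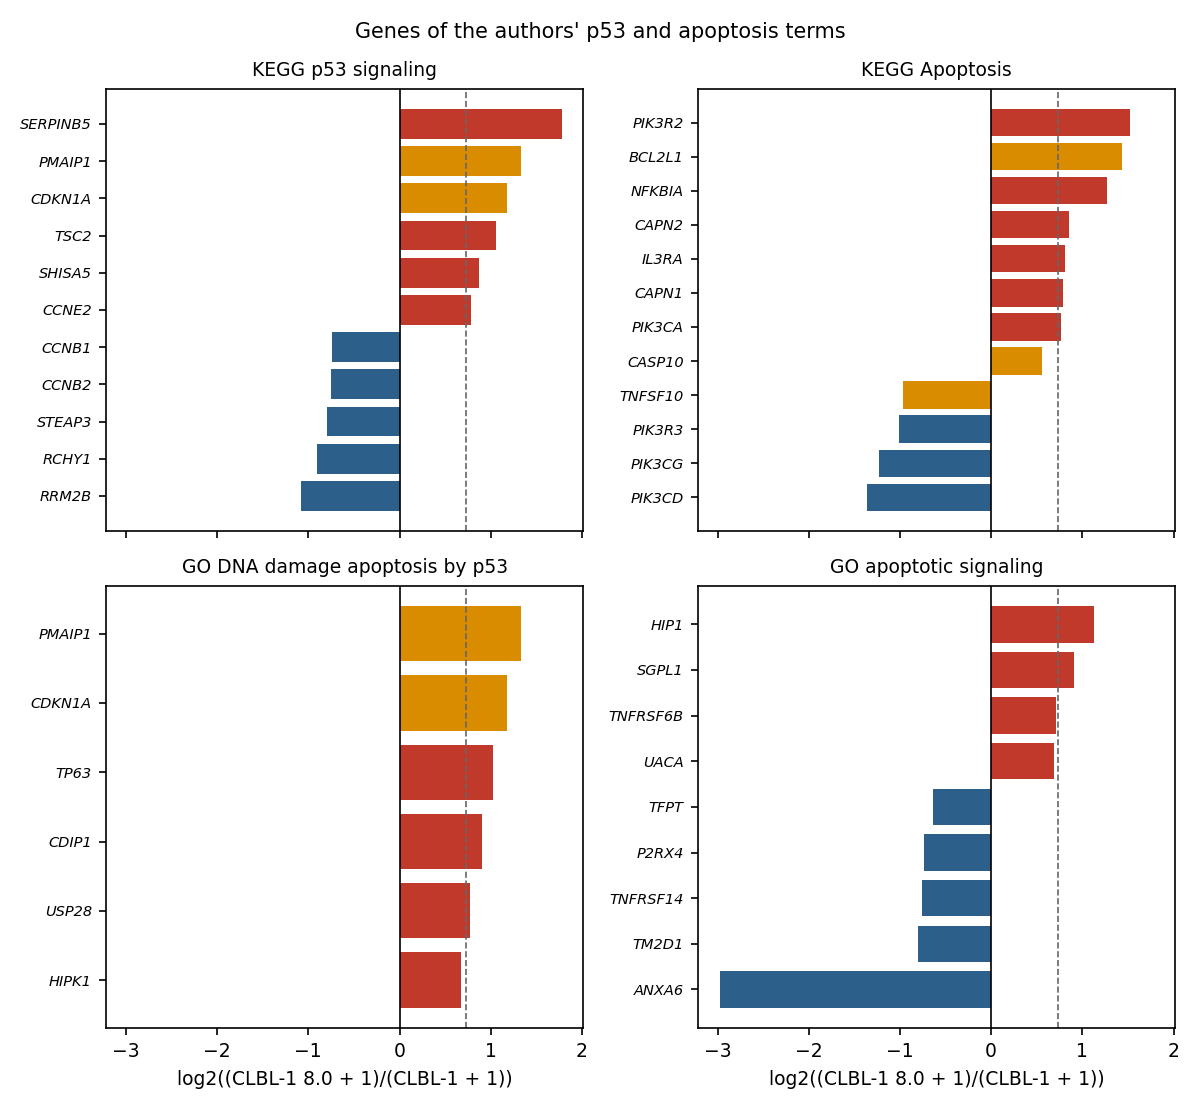
Log2 difference with a pseudocount of 1 (horizontal axis) for genes of the authors' 4 terms (those whose values are reported here) named for p53 or apoptosis, with the 5 genes in orange, other higher genes in red and other lower genes in blue. The dashed line is the median of 0.73 over all rows. All 6 genes of the p53 DNA damage term lie above 0, as do 65.2% of all rows of the table.

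The 5 genes recur in many of the authors' terms. CDKN1A and BCL2L1 each belong to 12 terms, PMAIP1 to 6, TNFSF10 to 5 and CASP10 to 4. In all, 18 of the 50 deposited KEGG terms and 10 of the 118 ontology terms hold at least 1 of them. Terms that share genes are not independent of each other.

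The listed rows on either side of each gene gave the context along the chromosomes, often over long distances. CDKN1A differed in direction from both adjacent rows: BRPF3, a subunit of a histone acetyltransferase complex, was at 3.01 in the resistant line against 5.01, and TBC1D22B, a Rab GTPase-activating protein family member, was at 4.21 against 16.9. PMAIP1 lay between PIGN, an enzyme of GPI anchor synthesis, at 21.4 against 11.3, and SEC11C, a subunit of the signal peptidase, at 155 against 280.0. Within 4 places on either side, 3 of 8 listed rows were higher for CDKN1A and 3 of 8 for PMAIP1. These rows lay up to 4072 kb from CDKN1A and up to 11363 kb from PMAIP1. On chromosome 12, that of CDKN1A, 46 of 68 rows (67.6%) were higher, against 65.2% of all rows. On chromosome 1 the directions were even, with 35 rows higher and 35 lower. The median log2 difference of that chromosome, 0.00049, therefore falls between its higher and its lower rows. Set against it, PMAIP1 was 1.33 higher, which only repeats its own log2 difference.

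Of the 8 listed rows within 4 places of BCL2L1 on either side, 7 were higher, and the nearest row lay 754.9 kb away. On chromosome 24, 26 of 35 rows (74.3%) were higher, against 65.2% of all rows. The adjacent row CSNK2A1, a catalytic subunit of casein kinase 2, was at 67.8 against 37.0. On the other side DNMT3B, a DNA methyltransferase, was lower, at 4.04 against 6.48. The log2 difference of BCL2L1 exceeded the median of chromosome 24 by 0.66.

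On chromosome 37, the 3 listed rows before CASP10 were all lower, but the nearest of them lay 8630.5 kb away. Of these, NEMP2 was at 3.95 against 7.21, and STAT4, a transcription factor of cytokine signalling, was at 0.523 against 6.31. After CASP10, 6 of 7 rows were higher, beginning 340.4 kb away with TMEM237, a gene of the primary cilium, at 22.3 against 11.8. The log2 difference of CASP10 minus the median of its chromosome was -0.068. TNFSF10 was the last listed row of chromosome 34. The 4 rows before it were higher, but the nearest of them lay 2060.6 kb away. That row, GPR160, an orphan receptor, was at 15.0 against 8.74. On chromosome 34, 10 of 16 rows (62.5%) were higher, against 65.2% of all rows.

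**Figure D4:**
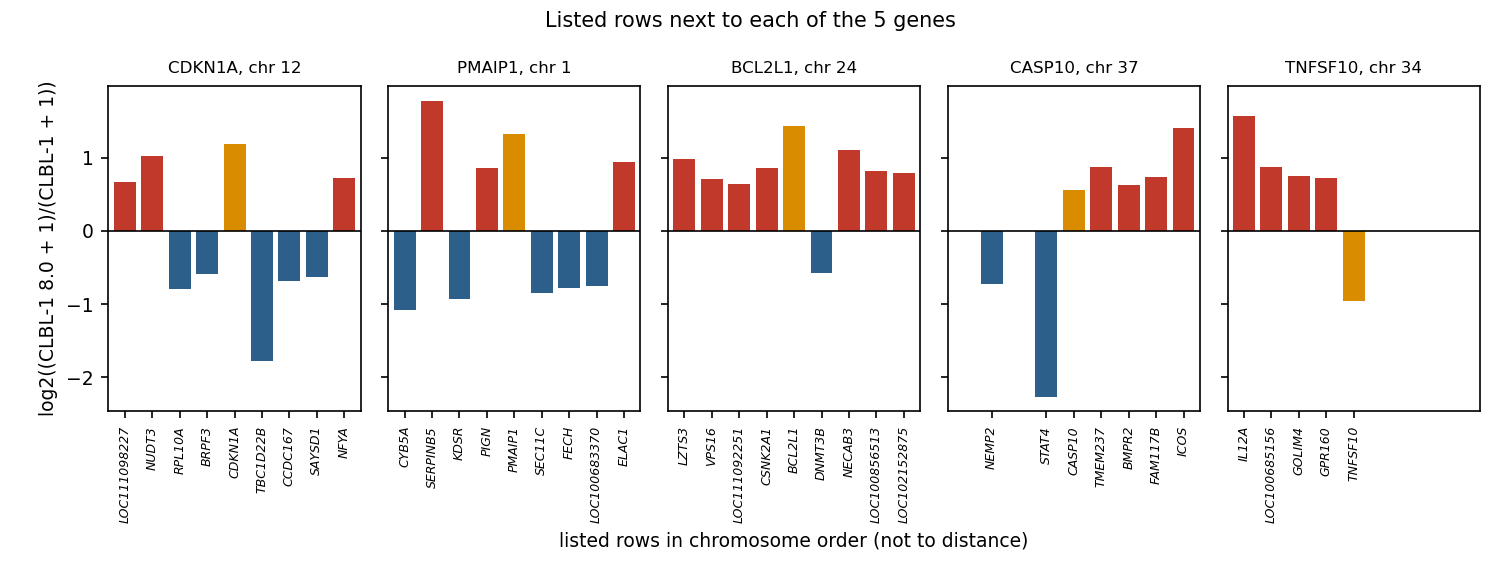
Log2 difference with a pseudocount of 1 (vertical axis) of each of the 5 genes (orange) and the listed rows within 4 places on either side in chromosome order (those whose values are reported here), with higher rows in red and lower rows in blue. TNFSF10 is lower, and the 4 listed rows before it are higher and at least 2060.6 kb away from it. The lower rows before CASP10 are at least 8630.5 kb away from CASP10.

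In a reference table of dog genes of assembly UU_Cfam_GSD_1.0, used for names and gene order only, none of the directly neighbouring protein-coding genes of the 5 had a row. These neighbours include CFLAR and CASP8 on either side of CASP10, which act in the same death receptor complex. BCL2L1 overlaps a long non-coding RNA gene there and CASP10 overlaps a pseudogene. Strand handling in the counting is not given in sources used here, so reads of overlapping genes may not have been separated.

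The listed genes most like each of the 5 were found by distance over the 2 lines on the log2(value + 1) scale. CDKN1A was nearest to TPGS2, PLOD3 and TIGD7, at distances from 0.098 to 0.12. PMAIP1 was nearest to UBE2H, TSPYL4 and LAMP3, from 0.083 to 0.18. BCL2L1 was nearest to GNG3, BHLHE40 and PKIG, from 0.081 to 0.11. CASP10 was nearest to NEPN, CEP97 and BMPR2, from 0.0025 to 0.051, and TNFSF10 to ERAP1, MRPS36 and CHCHD5, from 0.034 to 0.090. With 2 values per gene and no stated scaling per length, such likeness means only that the deposited values were near each other.

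The labelled cell type could not be checked from the table, because none of 13 B cell marker genes had a row. Among 34 markers of other cells, 4 had a row. GZMA and PRF1, cytotoxic granule genes of T and NK cells, were at 47.1 against 23.5 and at 1.07 against 6.67. FCER1G, a myeloid marker, was at 14.0 against 7.74 and EPCAM, an epithelial marker, at 2.07 against 5.26. TNFSF10 is also made by T and NK cells, and the part of other cells in its value was not tested.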

How the data were processed

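Poly-A RNA of 1 sample of each line was sequenced, with RNA extracted from 3 dishes, per the labels' protocols. HISAT2, StringTie and the CanFam3.1 build are named, per the submitters' processing notes. Versions, settings and annotation are not given in sources used here. The deposited abundance values per gene come without a unit and are not whole, so depth is unknown and counting intervals could not be formed. The log2 folds are the authors', and match the ratio of the resistant to the parental value as deposited. The p-value of each term and the count of genes in it are the authors', per the file headers; how they were computed or adjusted is not given in sources used here.

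From these values, log2((resistant + 1)/(parental + 1)) was computed for all 1729 rows, with python 3.11.15, numpy 2.4.6 and pandas 2.3.3. The arithmetic was checked on simulated data, in which set factors were applied to the parental values without noise or row selection. Folds were recovered there without a pseudocount, so this checks the code and not the results. No statistical test between lines was made, and 2-fold refers to the deposited log2 fold. Alternatives were pseudocounts of 0 and 5, upper-quartile scaling, centring on the median of all rows and a minimum of 10 in the higher line. The text names the 5 genes, listed genes of the role lists, adjacent rows, the 3 most alike rows and selected genes of the terms named for p53 or apoptosis; other adjacent genes in the accounts of chromosomes were named after their values were seen. The members and lists were chosen with earlier results of these data known. Values of some genes that these rules take are not reported here.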

Additional observations from a re-analysis of the deposited data

How the results depend on the processing

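With no replicates, there is no error against which to judge a shift of a value, so shifts are given as values. Without a pseudocount, the log2 differences were 1.20 for CDKN1A, 1.39 for PMAIP1, 1.67 for BCL2L1, 0.69 for CASP10 and -0.98 for TNFSF10. With a pseudocount of 5 they were, in the same order, 1.12, 1.13, 0.94, 0.32 and -0.89. Upper-quartile scaling, which multiplied the parental values by 1.25, gave 0.87, 1.02, 1.18, 0.30 and -1.28. Centring on the median of 0.73 over all rows gave 0.45, 0.60, 0.71, -0.17 and -1.69, so CASP10 alone of the 5 genes changed sign, under this 1 alternative. Since the rows were selected for being different, that median does not measure a shift of the whole transcriptome. Upper-quartile scaling left 2 genes past 2-fold upwards, PMAIP1 and BCL2L1, and brought 1 past 2-fold downwards, TNFSF10. With a value of at least 10 required in the higher line, 5 genes of the role lists were higher in place of 8 and 6 lower in place of 7. After centring, 7 were higher and 8 lower, so the balance of the role lists turned under both. Centring leaves as many of all rows lower as higher, so a near-even split after it is also that of the whole table. Under centring, 2 genes of the apoptotic signaling term were higher in place of 4, and 1 gene of the p53 DNA damage term, HIPK1, was lower in place of 0. Scaling and centring of the role lists and all alternatives for the terms were chosen after seeing the data. No paired analysis was possible because each line has 1 sample, and for the same reason no replicate could be left out. Depth is unknown, so the precision of low values such as those of CASP10 and BCL2L1 cannot be given.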

Other observations

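The table holds further rows of the TNF ligand and receptor families besides TNFSF10, named here after their values were seen. Of the 7 listed rows with a symbol beginning TNFSF or TNFRSF, 4 were higher in the resistant line and 3 were lower, against 65.2% higher among all rows. Family members under other symbols are not in this count. After centring on the all-row median, 3 of the 7 were higher, because TNFRSF6B became -0.021. Such centring leaves as many of all rows lower as higher, so the share of 65.2% does not apply there. TNFRSF19, a receptor family member linked to Wnt signalling, was at 22.8 in CLBL-1 8.0 against 4.13 in CLBL-1, the largest fold of the 7 at 5.52. TNFSF8, the ligand of CD30, was at 5.74 against 2.66. TNFSF14, which encodes the ligand LIGHT, was at 21.3 against 35.5, and TNFRSF14, which encodes the LIGHT receptor HVEM, was at 16.7 against 29.0. This ligand and its receptor were thus both lower, by 1.66-fold and 1.74-fold, while the decoy receptor TNFRSF6B was 1.67-fold higher as deposited. TNFSF10 had the largest decrease of the 3 lower rows.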
